A study of Mus musculus with 3 samples.

Results

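Extracellular matrix genes were compared between mouse liver and mouse spleen: the collagen chains, the laminin chains, the nidogens, the fibrillins and fibulins, elastin, the lysyl oxidases, 3 small proteoglycans, 2 matricellular proteins, fibronectin and vitronectin. Members were probes that carried a single gene symbol of these families in the platform annotation, which gave 69 probes of 66 genes among 16281 probes in all. The rule took in no gene outside the matrix. Of the 69 probes, 54 (78.3%) were measured on all 3 arrays and tested, against 86.7% of all probes, and 13 of the 66 genes had no tested probe. Fibronectin (Fn1) and vitronectin (Vtn), which circulate in plasma and are made by hepatocytes, were kept apart from the other 67 probes, called stromal matrix here. That name is a label for the remaining probes and not a cell of origin, since it includes Col18a1, which hepatocytes are known to make.

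The matrix is the meshwork outside cells. Fibrillar collagens form cables in connective tissue, while collagen IV, laminins and nidogens form the sheet-like basement membranes under epithelia and around vessels, muscle and fat cells. In the liver, matrix lies mostly in the portal tracts and capsule and, thinly, along the sinusoids, where stellate cells are a known source. The spleen has a capsule and trabeculae with smooth muscle, and a reticular meshwork made by fibroblastic reticular cells. Fibronectin and vitronectin also act in clotting and cell attachment after they leave the blood.

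The series has 3 two-colour oligonucleotide arrays, each set up with purchased mouse spleen RNA in the green dye (Cyanine-3) against purchased mouse liver RNA in the red dye (Cyanine-5), after 1 round of amplification to cRNA. Every array used the same product of each tissue, so the arrays count as repeats of 1 pair of RNAs, and SDs and p-values describe array-to-array spread, which may be technical and does not cover differences between animals. The labels give no strain, sex, age or number of mice behind either RNA, and no treatment. The dye orientation was the same throughout, so dye bias of a probe and a difference between the organs cannot be told apart. Each deposited value is 1 log2 ratio, and an exact 0, which also stood for abundant liver transcripts such as Ttr and Apoa1, was taken as no measurement. Means stand with their SD (n = 3 arrays), folds are computed from means, and a probe passed the test where limma's adjusted p over 14122 probes was below 0.05. In whole-tissue RNA, fewer cells of a type and less RNA per cell cannot be told apart.

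The labels do not give the direction of the ratio, and liver over spleen is the likely reading. The measured probes of a set of liver genes (among them Ahsg, Trf and Apoc3) had medians of 3.86, 4.11 and 3.72 on arrays 1, 2 and 3, from 3, 5 and 3 probes. Those of a set of spleen leukocyte genes (among them Ptprc, Cd74 and Cd79b) had medians of -1.40, -1.34 and -1.08. The spleen set was not uniform: of its 10 tested probes, 7 passed toward spleen and 3 did not pass. These 3 were 1 Ptprc probe at 0.03, the Cd3e probe at 0.13 and 1 Coro1a probe at 0.24. Positive values are therefore written as higher in liver and negative values as higher in spleen.

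Promoter sequence is shown for the collagen with the highest ratio toward liver (Col18a1, with both of its annotated starts), for the plasma protein with a promoter in the table (Vtn) and for 2 fibrillar collagens higher in spleen (Col3a1 and Col1a2). The sequences are from RefSeq on GRCm38.p6, which held promoters for 43 of the 66 genes, and each is the 250 bases before the start, read 5′ to 3′ on the gene's strand. Capitals mark matches on either strand to 5 motifs. The CCAAT box was searched as CCAAT. The TATA box was searched as TATAAA and the GC box as GGGCGG. For C/EBP the letters were TTGCNNAA, and for the liver factor HNF4 they were CAAAGTCC.
Col18a1 outer start, chr10:77166531-77166780, - strand: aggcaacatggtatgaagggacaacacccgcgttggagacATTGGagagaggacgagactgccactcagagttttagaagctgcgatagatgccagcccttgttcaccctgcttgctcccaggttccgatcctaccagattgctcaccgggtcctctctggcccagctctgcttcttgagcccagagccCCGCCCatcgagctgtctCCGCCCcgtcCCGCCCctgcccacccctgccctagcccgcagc
Col18a1 inner start, chr10:77113706-77113955, - strand: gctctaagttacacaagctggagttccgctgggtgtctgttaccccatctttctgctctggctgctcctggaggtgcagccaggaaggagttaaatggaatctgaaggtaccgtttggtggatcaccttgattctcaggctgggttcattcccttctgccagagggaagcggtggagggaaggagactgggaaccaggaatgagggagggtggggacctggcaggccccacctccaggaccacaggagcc
Vtn, chr11:78498870-78499119, + strand: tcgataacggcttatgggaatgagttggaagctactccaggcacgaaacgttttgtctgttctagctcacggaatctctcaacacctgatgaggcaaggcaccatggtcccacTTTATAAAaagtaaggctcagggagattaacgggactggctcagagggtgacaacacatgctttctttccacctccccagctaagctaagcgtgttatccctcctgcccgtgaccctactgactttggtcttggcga
Col3a1, chr1:45311288-45311537, + strand: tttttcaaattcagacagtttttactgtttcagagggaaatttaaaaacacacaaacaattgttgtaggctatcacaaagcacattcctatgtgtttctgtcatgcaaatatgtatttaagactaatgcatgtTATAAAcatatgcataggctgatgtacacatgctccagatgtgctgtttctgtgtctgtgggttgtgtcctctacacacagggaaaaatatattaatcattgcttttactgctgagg
Col1a2, chr6:4505368-4505617, + strand: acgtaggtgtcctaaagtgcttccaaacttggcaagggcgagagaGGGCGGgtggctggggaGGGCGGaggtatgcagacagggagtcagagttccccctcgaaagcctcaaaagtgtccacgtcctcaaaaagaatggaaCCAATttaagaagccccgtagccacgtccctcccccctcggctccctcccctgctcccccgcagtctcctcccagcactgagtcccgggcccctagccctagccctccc
The inner Col18a1 window held no match to these letters, while the outer one held 3 GC boxes and 1 CCAAT box. Vtn held the TATA letters on both strands in overlapping positions, 137 to 130 bases before the start, so that its capitals run together. Col3a1 held the TATA letters 117 to 112 bases before the start. Col1a2 held 2 GC boxes and 1 CCAAT box. Among the 32851 promoter windows of this length in the table, 33.8% held a CCAAT box, 12.4% a TATA box, 32.7% a GC box, 9.56% the C/EBP-type letters and 1.20% the HNF4-type letters. A match to these letters is a description of the sequence and not a site of binding, and the probes do not tell which Col18a1 start was used.

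Matrix genes were split between the organs, with few large differences. Of the 54 tested probes, 14 passed toward liver, 17 passed toward spleen and 23 did not pass. Over all 14122 tested probes 50.2% passed, 23.5% toward liver and 26.7% toward spleen, so the matrix shares of 25.9% and 31.5% lay near the background. At 2-fold or more, 6 matrix probes were higher in liver (Fn1, Col18a1, Vtn, Dcn, Col5a3 and Lum) and 1 higher in spleen (Col3a1). These are 11.1% and 1.85% of the tested matrix probes, beside 8.85% and 9.13% of all tested probes. Stromal matrix as a group had a median of 0.06, against 0.02 over all tested probes, and both plasma proteins lay above 2. Between Col27a1 at 0.41 and Lum at 1.31 there was no tested matrix probe. With 1 array left out, the count toward liver was 8, 9 and 9 without arrays 1, 2 and 3, and that toward spleen was 11, 9 and 17. The matching shares of all probes are not given here, so these lower counts cannot be read as particular to the matrix.

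**Figure D1:**
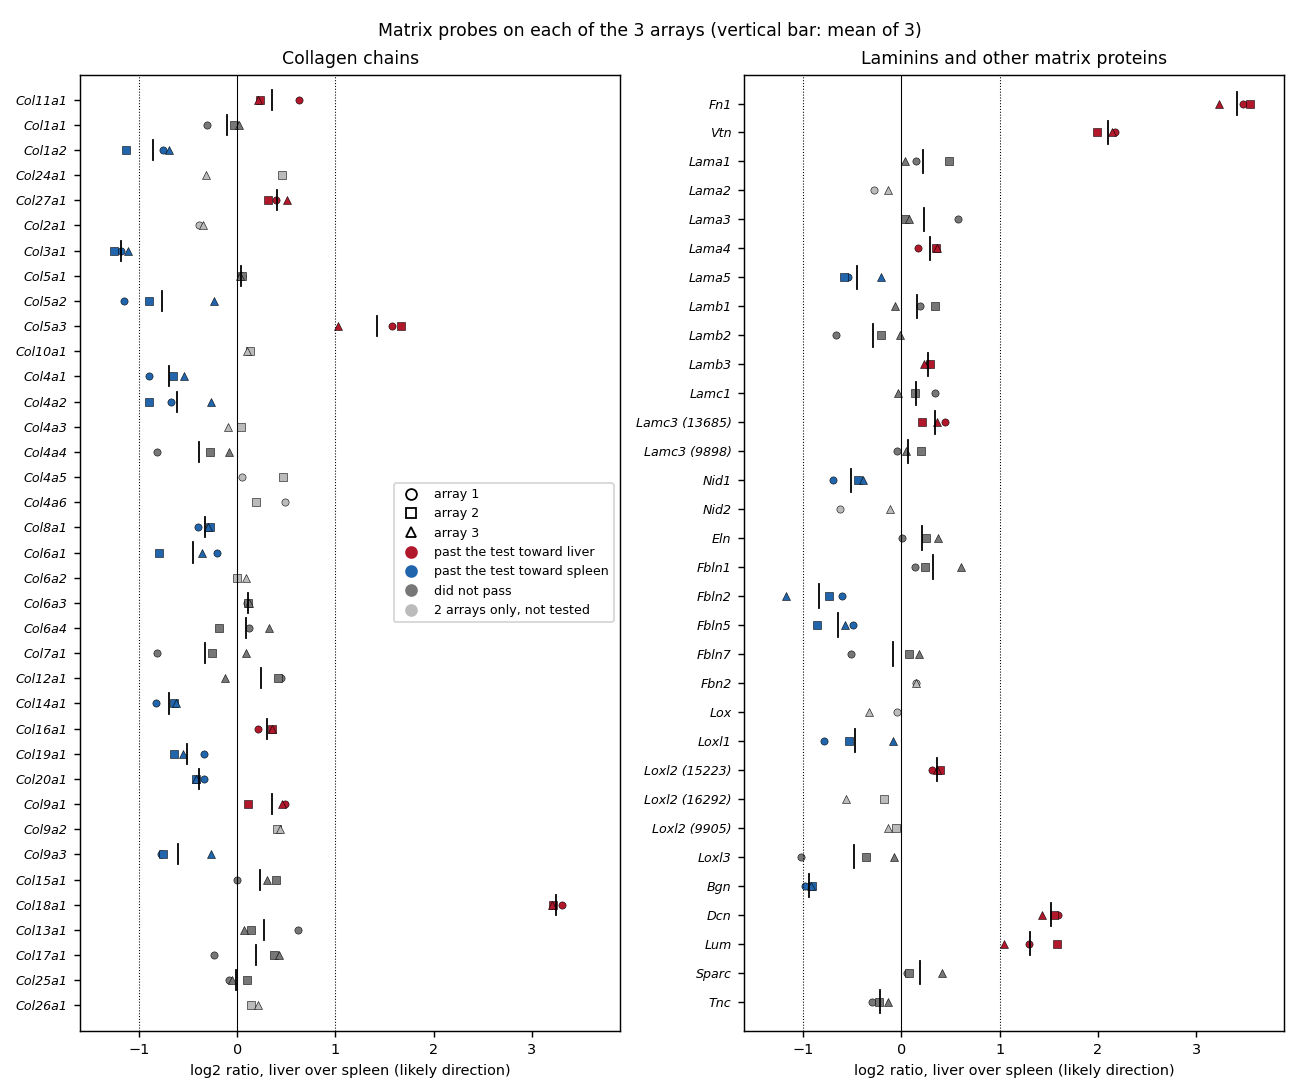
Log2 ratio of each matrix probe (liver over spleen, horizontal axis) on array 1 (circles), array 2 (squares) and array 3 (triangles), with the mean of 3 arrays as a vertical bar and dotted lines at 2-fold. Red and blue probes passed the test toward liver and spleen, dark grey probes did not pass, and light grey probes had values on 2 arrays; Fn1, Col18a1 and Vtn stand farthest to the right and Col3a1 farthest to the left.

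Fibronectin and vitronectin were higher in liver by 10.7-fold and 4.30-fold. Fn1, a glycoprotein that links integrins to collagen and fibrin, read 3.48, 3.55 and 3.24 on arrays 1, 2 and 3. Its mean was 3.42 ± 0.16 (adjusted p = 1.83e-05), and 1.15% of all tested probes had a higher mean. Vtn, the plasma protein that stabilizes the protease inhibitor PAI-1 and binds integrins, read 2.18, 1.99 and 2.15, a mean of 2.10 ± 0.10 (adjusted p = 3.37e-05). All 6 values were above 0, and the lowest Fn1 value was above the highest Vtn value. On every array Fn1 exceeded Vtn, by 1.32 ± 0.23 on the log2 scale. In a list of hepatocyte markers, the 6 tested probes, of Ahsg, Itih1, Arg1, Otc, Pck1 and F2, had larger ratios, between 3.76 and 5.70. Apoc3, of the liver gene set above, was at 3.36, below Fn1.

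Collagen XVIII was the collagen with the highest ratio toward liver. Col18a1 encodes a basement membrane proteoglycan whose end piece is endostatin, and in liver it is known to be made by hepatocytes. The probe read 3.30, 3.22 and 3.20, a mean of 3.24 ± 0.05 and a 9.45-fold ratio (adjusted p = 1.73e-05). The 3 arrays spanned 0.10, its SD was the smallest of the 7 matrix probes past 2-fold, and 1.43% of all tested probes had a higher mean. Col15a1, its closest relative and also a multiplexin, read 0.00, 0.39 and 0.31 and did not pass (mean 0.23 ± 0.21). The first of these Col15a1 values is a small measured ratio and not an exact 0. Without Col18a1 the median of stromal matrix was 0.04.

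Of 8 tested fibrillar collagen chains, 3 were higher in spleen (Col3a1, Col1a2 and Col5a2), 3 higher in liver (Col5a3, Col27a1 and Col11a1) and 2 did not pass. Thus 75% passed in either direction, beside 50.2% of all tested probes. Col3a1, the collagen of reticular fibres, read -1.18, -1.26 and -1.12, a 2.27-fold ratio toward spleen (mean -1.18 ± 0.07, adjusted p = 0.000177). It was the lowest of the tested matrix probes, and 6.83% of all tested probes lay lower. Col1a2, the α2 chain of collagen I, read -0.75, -1.13 and -0.70 (mean -0.86 ± 0.24, adjusted p = 0.00202). Col1a1, the α1 chain of the same molecule, read -0.31, -0.03 and 0.02 and did not pass (mean -0.11 ± 0.18, adjusted p = 0.408). The Col1a1 value was above the Col1a2 value on all 3 arrays, by 0.75 ± 0.33. Each chain had 1 probe, and whether the chains or the probes differ was not tested.

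The 3 chains of collagen V, which sets the diameter of collagen fibrils, lay in different places. Col5a3 was higher in liver and read 1.58, 1.67 and 1.02, a 2.68-fold ratio (mean 1.42 ± 0.35, adjusted p = 0.000768). Col5a2 was higher in spleen and read -1.15, -0.90 and -0.24 (mean -0.76 ± 0.47, adjusted p = 0.0191). Its value on array 3 was much nearer 0 than the others, and it did not pass without array 1 (mean -0.57, adjusted p = 0.0616) or without array 2 (mean -0.69, adjusted p = 0.0936). Col5a1 read 0.05, 0.05 and 0.03, with 1 of the smallest spreads of the family and no pass (mean 0.04 ± 0.01). The Col5a3 value exceeded the Col5a2 value by 2.73, 2.57 and 1.26 on the 3 arrays. Of the other fibrillar chains, Col27a1 was higher in liver at 0.41 ± 0.10. Col11a1 at 0.36 ± 0.24 passed with all 3 arrays (adjusted p = 0.0484) but not with array 1, 2 or 3 left out, at means of 0.22, 0.42 and 0.43. The Col2a1 probe was listed at 0 on array 2 and read -0.39 and -0.34 on the others, and the Col24a1 probe read 0.46 and -0.32 on arrays 2 and 3.

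Among 14 tested basement membrane probes (collagen IV, laminins and nidogens), 4 passed toward spleen, 3 toward liver and 7 did not pass, with a median of 0.11. The share past the test in either direction, 50%, was near the 50.2% of all tested probes. Col4a1 and Col4a2, the 2 common chains of collagen IV, are transcribed in opposite directions, and their RefSeq starts on GRCm38.p6 overlap by 22 bases. Col4a1 read -0.90, -0.65 and -0.55 (mean -0.70 ± 0.18, adjusted p = 0.00279). Col4a2 read -0.67, -0.89 and -0.27 (mean -0.61 ± 0.32, adjusted p = 0.0148). All 6 values were below 0, and the difference between the chains changed sign between arrays, at -0.09 ± 0.29. Col4a2 did not pass without array 1 (mean -0.58, adjusted p = 0.0532) or array 2 (mean -0.47, adjusted p = 0.0665).

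The tissue-restricted collagen IV chains did not pass or were not tested. Col4a4 read -0.82, -0.28 and -0.08 (adjusted p = 0.0844), and passed without array 3 at a mean of -0.55 (adjusted p = 0.0493). Col4a3, Col4a5 and Col4a6 each had an exact 0 on 1 array, and their remaining values lay between -0.09 and 0.48. Nid1, which bridges laminin and collagen IV, read -0.70, -0.44 and -0.39 and was higher in spleen (mean -0.51 ± 0.17, adjusted p = 0.00838). Nid2 read -0.62 and -0.12 on arrays 1 and 3 and was not tested.

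Laminins are trimers of 1 α, 1 β and 1 γ chain. Of 10 tested laminin probes, 3 passed toward liver, 1 toward spleen and 6 did not pass, and their means lay between -0.45 and 0.34. The share that passed was 40%, beside 50.2% of all tested probes. Lama5, the α chain of many mature basement membranes, read -0.55, -0.58 and -0.21 and was the member higher in spleen (mean -0.45 ± 0.20, adjusted p = 0.0182). It did not pass without array 1 (mean -0.40, adjusted p = 0.0795) or array 2 (mean -0.38, adjusted p = 0.0907). Lama4, the α chain of endothelium and muscle, was at 0.30 ± 0.11, Lamb3 at 0.27 ± 0.03 and 1 of the 2 Lamc3 probes at 0.34 ± 0.12, all past the test toward liver. The other Lamc3 probe was at 0.07 ± 0.12 and did not pass.

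None of these 3 liver-side laminin calls held each time 1 array was left out. Without arrays 1, 2 and 3, Lama4 did not pass at means of 0.36, 0.27 and 0.26, and Lamb3 did not pass at 0.26, 0.25 and 0.28. Lamc3 did not pass without array 1 (0.29) or array 3 (0.33), and passed without array 2 (0.40, adjusted p = 0.0454). The widely expressed β1 and γ1 chains, Lamb1 and Lamc1, averaged 0.15 ± 0.21 and 0.15 ± 0.18 and did not pass. Lama1 at 0.22 ± 0.23, Lama3 at 0.23 ± 0.30 and Lamb2 at -0.29 ± 0.33 did not pass either, and Lama2 read -0.28 and -0.13 on arrays 1 and 3.

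The other collagens had smaller ratios. Of the 7 tested FACIT collagens, which sit on fibril surfaces, 4 passed toward spleen and 2 toward liver. That is 85.7% past the test in either direction, beside 50.2% of all tested probes. Col14a1 read -0.83, -0.64 and -0.63 (mean -0.70 ± 0.11, adjusted p = 0.00162), so that all 3 values lay below -0.5. Also higher in spleen were Col9a3 at -0.60 ± 0.29, Col19a1 at -0.51 ± 0.16 and Col20a1 at -0.39 ± 0.05. Toward liver, Col9a1 was at 0.35 ± 0.21 and Col16a1 at 0.31 ± 0.08, while Col12a1 at 0.25 ± 0.33 did not pass. Among the 3 chains of cartilage collagen IX, Col9a1 and Col9a3 thus passed in opposite directions, and Col9a2 read 0.40 and 0.43 on arrays 2 and 3.

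Of these FACIT calls, those of Col14a1 and Col19a1 held without any 1 array. Col9a3 did not pass without array 1 (mean -0.51) or array 2 (mean -0.52), and Col20a1 did not pass without array 2 (mean -0.38). Col9a1 did not pass without array 1 (0.28) or array 3 (0.30), and Col16a1 did not pass without arrays 1 (0.36), 2 (0.28) or 3 (0.29). Col12a1 passed without array 3 alone, at 0.43 (adjusted p = 0.0256).

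Collagen VI forms beaded filaments around cells. Its α1 chain Col6a1 read -0.20, -0.80 and -0.36 and passed toward spleen (mean -0.45 ± 0.31, adjusted p = 0.0375), but not without array 2 (mean -0.28) or array 3 (mean -0.50). Col6a3 read 0.10, 0.11 and 0.12 and did not pass (mean 0.11 ± 0.01), nor did Col6a4 at 0.09 ± 0.25. Col6a2 read 0.00 and 0.09 on arrays 2 and 3, the first a small measured ratio. Col8a1, a network collagen of vessel walls, was at -0.32 ± 0.07 toward spleen, and it did not pass without arrays 1 (-0.29), 2 (-0.35) or 3 (-0.34). Col7a1, the anchoring-fibril collagen of skin, read -0.81, -0.26 and 0.09 and did not pass.

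The membrane-spanning collagens Col13a1 at 0.27 ± 0.30, Col17a1 at 0.19 ± 0.37 and Col25a1 at -0.01 ± 0.10 did not pass. Col17a1 passed without array 1, at 0.40 (adjusted p = 0.0458). Col10a1, of growth-plate cartilage, and Col26a1 had values on arrays 2 and 3 only, between 0.10 and 0.21.

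The 3 small leucine-rich proteoglycans, which bind collagen fibrils, all passed, and in both directions. Of all tested probes 50.2% passed, 23.5% toward liver and 26.7% toward spleen, so a count of 3 says little about the family. Decorin (Dcn) read 1.60, 1.55 and 1.43, a 2.88-fold ratio toward liver (mean 1.52 ± 0.09, adjusted p = 8.55e-05). Lumican (Lum) read 1.30, 1.59 and 1.05, a 2.48-fold ratio toward liver (mean 1.31 ± 0.27, adjusted p = 0.000543). Biglycan (Bgn), the close relative of decorin, read -0.98, -0.91 and -0.92, a 1.92-fold ratio toward spleen (mean -0.94 ± 0.04, adjusted p = 0.000356). The values of Dcn and Bgn did not overlap, and Dcn exceeded Bgn by 2.46 ± 0.11 on the log2 scale.

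**Figure D2:**
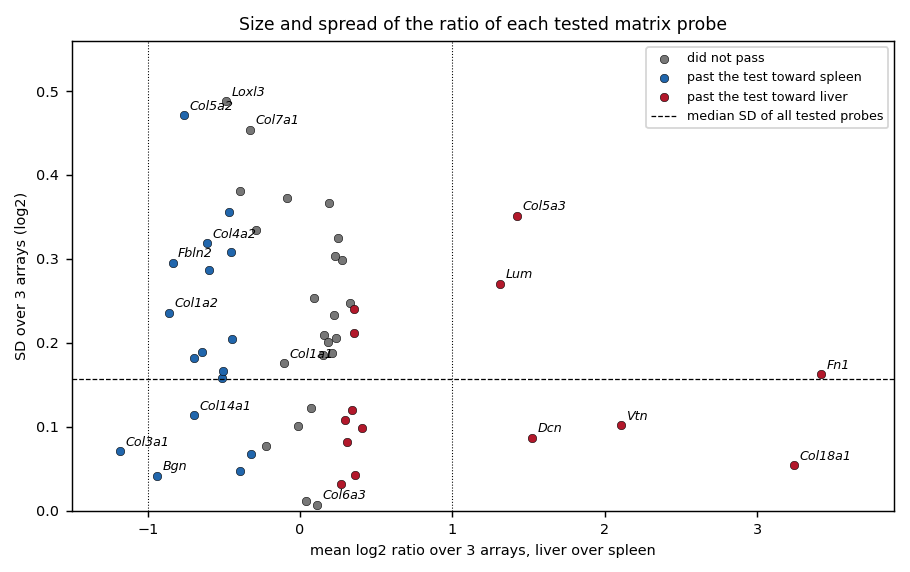
Mean log2 ratio over 3 arrays (horizontal axis) against the SD over the same arrays (vertical axis) for the 54 tested matrix probes, coloured by the test, with dotted lines at 2-fold and a dashed line at the median SD of all tested probes (0.16). Col18a1, Dcn, Bgn and Col3a1 combine a large ratio with a small SD, while Loxl3, Col5a2 and Col7a1 have the largest SDs of the labelled probes.

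Of 5 tested elastic fibre probes, 2 were higher in spleen and 3 did not pass. Beside this share of 40% stands the 50.2% of all tested probes that passed in either direction. Fibulin-2 (Fbln2), which links basement membrane and elastic fibre proteins, read -0.61, -0.73 and -1.17 (mean -0.84 ± 0.30, adjusted p = 0.00376). Fibulin-5 (Fbln5), needed for elastic fibre assembly, read -0.50, -0.86 and -0.58 (mean -0.64 ± 0.19, adjusted p = 0.00414). All 6 values of these 2 genes were below 0. Fibulin-1 (Fbln1), which also occurs in plasma, read 0.14, 0.24 and 0.61 and did not pass (adjusted p = 0.0644). Elastin (Eln) at 0.21 ± 0.19 and Fbln7 at -0.08 ± 0.37 did not pass, and fibrillin-2 (Fbn2) read 0.15 on arrays 1 and 3.

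The lysyl oxidases cross-link collagen and elastin. Loxl1 read -0.79, -0.53 and -0.08 and passed toward spleen (mean -0.47 ± 0.36, adjusted p = 0.0457), but not without array 1 (mean -0.31, adjusted p = 0.168) or array 2 (mean -0.44, adjusted p = 0.160). Of 3 Loxl2 probes, the tested one was at 0.36 ± 0.04 toward liver, and it did not pass without array 1 (0.38) or array 2 (0.34). The other Loxl2 probes, each listed at 0 on array 1, read -0.05 and -0.14, and -0.18 and -0.56, on arrays 2 and 3, so the probes of Loxl2 pointed both ways. Loxl3 read -1.03, -0.35 and -0.08 and did not pass (adjusted p = 0.0814), but did without array 3 at -0.69 (adjusted p = 0.0374). Lox itself read -0.04 and -0.33 on arrays 1 and 3.

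The matricellular proteins did not pass. Sparc, a collagen-binding glycoprotein of endothelium, fibroblasts and platelets, read 0.06, 0.08 and 0.42 (mean 0.19 ± 0.20, adjusted p = 0.193). Tenascin-C (Tnc), which is found in the reticular meshwork of the spleen, read -0.29, -0.23 and -0.14 (mean -0.22 ± 0.08, adjusted p = 0.0716). The Sparc values were all above 0 and the Tnc values all below 0.

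The size and evenness of the matrix ratios were set beside those of all tested probes. Of the 54 tested matrix probes, 36 (66.7%) lay within 0.5 of 0, against 64.3% of all tested probes, and the median absolute mean ratio was 0.35, against 0.31. The median SD was 0.20, against 0.16, while 44 matrix probes (81.5%) had the same sign on all arrays, against 73.7% of all tested probes. Array 1 gave the lowest value for 26 matrix probes (48.1%), against 31.8% of all tested probes, and array 3 the highest for 25 (46.3%), against 36.1%. The 10 matrix probes with values of both signs were all among the 23 that did not pass. The 15 matrix probes that were not tested each had 1 exact 0, 8 of them on array 1, and none of their remaining values exceeded 0.62 in size.

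**Figure D3:**
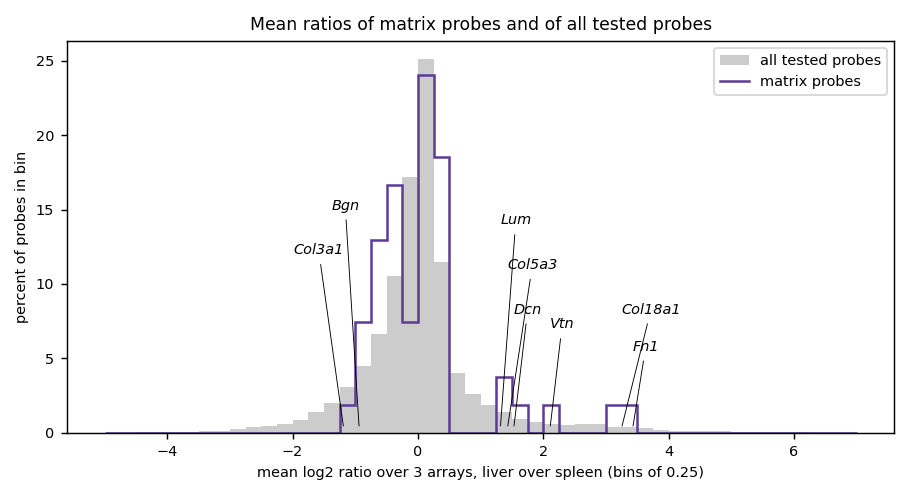
Percent of probes (vertical axis) by mean log2 ratio over 3 arrays in bins of 0.25 (horizontal axis), for all 14122 tested probes (grey) and the 54 tested matrix probes (purple line). The matrix probes lie between -1.18 (Col3a1) and 3.42 (Fn1), with 6 of them beyond 2-fold toward liver and 1 toward spleen.

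Genes that build, modify and bind the matrix were also mixed. Among 21 tested probes of collagen biosynthesis genes, 5 passed toward liver and 3 toward spleen, with a median of 0.08. These are 23.8% and 14.3%, beside 23.5% and 26.7% of all tested probes. P4hb, the protein disulphide isomerase that is also the β subunit of prolyl hydroxylase, was higher in liver on both probes, at 2.53 ± 0.28 and 2.35 ± 0.23. The lysyl hydroxylase Plod1 was at 0.79 ± 0.29. Both probes of Pcolce, the enhancer of procollagen processing, were higher in spleen, at -1.01 ± 0.05 and -0.54 ± 0.14. Serpinh1, the collagen-specific chaperone HSP47, read -1.08, -1.09 and -0.77 (mean -0.98 ± 0.18). P4hb acts on many secreted proteins, while Pcolce and Serpinh1 act on collagens.

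Of 24 tested probes of matrix receptors, 8 passed toward liver and 4 toward spleen, with a median of 0.13. These are 33.3% and 16.7%, beside 23.5% and 26.7% of all tested probes, and the 12 that passed in either direction are a share near the 50.2% of all. The heparan sulphate proteoglycans Sdc4 and Sdc2 were higher in liver at 2.49 ± 0.23 and 1.35 ± 0.14, and so was 1 of 2 probes of dystroglycan (Dag1), a laminin receptor, at 1.22 ± 0.28. The other Dag1 probe was at -0.20 ± 0.23 and did not pass. The laminin-binding integrin chain Itga6 was higher in spleen on its 2 tested probes, at -1.07 ± 0.32 and -0.52 ± 0.07, and the collagen receptor Ddr1 was at -0.71 ± 0.37.

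Other core matrix genes were called toward spleen more often than toward liver: of 47 tested probes, 17 passed toward spleen and 6 toward liver, with a median of -0.10. Their shares are 36.2% and 12.8%, beside 26.7% and 23.5% over all tested probes. Smoc2 and Smoc1, 2 related calcium-binding matrix proteins, stood at the ends of the list, Smoc2 at -2.35 ± 0.55 and Smoc1 at 2.97 ± 0.41. Next toward spleen were the latent TGF-β binding protein Ltbp2 at -0.92 ± 0.26 and the elastic fibre protein Mfap4 at -0.91 ± 0.42. Next toward liver were Sparcl1, a relative of Sparc, at 2.59 ± 0.30 and Ecm1 at 1.20 ± 0.37.

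**Figure D4:**
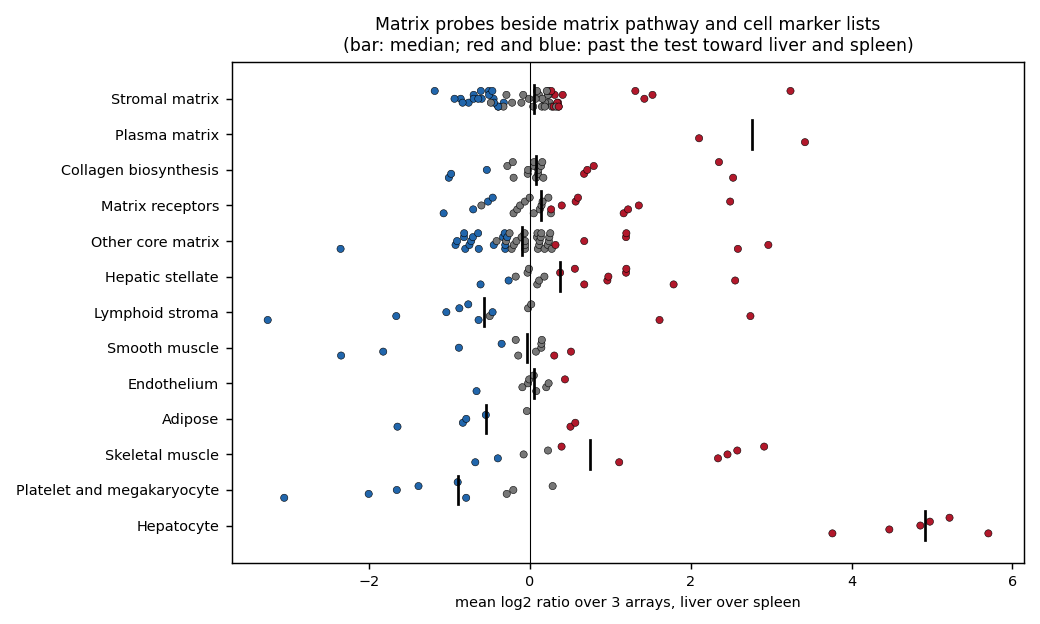
Mean log2 ratio over 3 arrays (horizontal axis) of each tested probe in the stromal and plasma matrix groups, in 3 lists of matrix pathway genes and in 8 lists of cell markers, with the median of each list as a bar; red and blue probes passed the test toward liver and spleen and grey ones did not. The stromal matrix median is at 0.06 and the hepatocyte median at 4.92.

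Markers of matrix-making and neighbouring cells went both ways, and their part in the matrix ratios was not tested. Beside their counts stand the 23.5% of all tested probes that passed toward liver and the 26.7% that passed toward spleen. Of 12 tested probes of lymphoid stroma, 7 passed toward spleen and 2 toward liver (median -0.57), with 1 Cxcl13 probe at -3.26 and Madcam1 at 2.74. Of 12 tested smooth muscle probes, 4 passed toward spleen and 2 toward liver (median -0.03). Tagln was at -2.35 and 1 Tpm2 probe at -1.82 toward spleen, with 1 Smtn probe at 0.51 and Tpm1 at 0.30 toward liver. The other tested Smtn probe was at -0.14 and did not pass. An untested Smtn probe read 4.39 and 3.39 on arrays 1 and 2, so the probes of Smtn disagreed. The smooth muscle shares of 33.3% toward spleen and 16.7% toward liver together lie near the 50.2% of all tested probes. Of 17 hepatic stellate probes, 9 passed toward liver and 2 toward spleen (median 0.38). Among the 9, both Reln probes and the Ecm1 probe are also counted toward liver under other core matrix genes, so the lists overlap. Colec11 was at 2.55 and 1 Rgs5 probe at 1.79, while Cygb was at -0.61 and Lrat at -0.26. Of 9 endothelial probes, 1 passed in each direction (median 0.05).

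Markers of other tissues and blood cells also differed, beside Dcn, Lum and Col5a3 toward liver and the collagens toward spleen. Over all tested probes, 23.5% passed toward liver and 26.7% toward spleen, and 50.2% in either direction. Of 10 skeletal muscle probes, 6 passed toward liver and 2 toward spleen, with per-array medians of 0.80, 0.67 and 0.87. Acta1, the actin of skeletal muscle, read 2.97, 3.08 and 2.69, and 1 of 2 myoglobin (Mb) probes read 2.86, 2.88 and 1.99. The 2 muscle probes that passed toward spleen were those of Myh4 at -0.68 and Ckm at -0.40. Of 7 adipose probes, 4 passed toward spleen and 2 toward liver (median -0.55). Lpl at -1.65 and Adipoq at -0.83 were among those toward spleen, and the 2 toward liver were Retn at 0.56 and Cidec at 0.50. Of 10 pancreas probes, 6 passed toward spleen and 1 toward liver (median -0.39), and 6 of 9 platelet and megakaryocyte probes passed toward spleen (median -0.90). Of 10 macrophage probes, 5 passed toward spleen and 3 toward liver; of 5 biliary probes, 1 passed toward liver, and neither of 2 mesothelial probes (Msln) passed. The part of these cells in the matrix ratios was not tested.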

How the data were processed

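The deposited table holds 1 log2 ratio of the channels per probe and array for 16281 probes on 3 arrays. The log base is taken from the values, since the highest value on every array is log2 of 100. What the authors did about background, dyes and filters is not given in the sources used here. Channel intensities were not used. The arrays' number limits the precision. Exact zeros (1414, 1098 and 1137 on arrays 1, 2 and 3) were taken as no measurement. Probes were named from the platform annotation (13738 with 1 symbol, 52 with several, 2491 with none), and the symbols of all 69 matrix probes matched RefSeq's through the Entrez number. A further 2 probes carry Loxl3 beside M1ap and Dok1 and were left out. In the same limma fit, 1 of them passed toward spleen (mean -0.42, adjusted p = 0.0109). The other did not pass (mean -0.15, adjusted p = 0.328). No genome position is given for probes, because no build is named for them.

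Ratios were tested probe by probe against 0 in R 4.3.3 with limma 3.58.1 (intercept only, moderated variances with 3.38 prior degrees of freedom, two-sided, Benjamini-Hochberg over 14122 probes). Probes were not averaged per gene, because probes of a gene can disagree. The fit was tested on simulated data. Every matrix probe is accounted for, and from each list of other matrix genes the largest members past the test in each direction are named. Members, lists and cell markers were chosen with earlier results of these data known. The other named markers were chosen after their values were seen. Alternatives were a gene mean, zeros kept, centring, scaling, 2-array probes, robust variances, named probes only, a 2-fold limit and leaving out each array.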

Additional observations from a re-analysis of the deposited data

How the results depend on the processing

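The 2-fold limit left 6 matrix probes toward liver and 1 toward spleen. With 1 array left out, the count toward liver ranged from 8 to 9 and that toward spleen from 9 to 17. Under the other 7 alternatives the count toward liver lay between 10 and 14 and that toward spleen between 12 and 18, and both medians moved by less than their spread between arrays. The matching shares of all probes are not given for these alternatives or with 1 array left out. Of the 31 matrix probes past the test, 16 passed in the same direction under all 10 alternatives other than the 2-fold limit: Fn1, Vtn, Col18a1, Dcn, Lum, Col5a3 and Col27a1 toward liver, and Col3a1, Bgn, Col1a2, Col14a1, Col4a1, Col19a1, Nid1, Fbln2 and Fbln5 toward spleen. No called probe changed direction. Keeping exact zeros as values ended 8 calls and added that of Tnc (adjusted p = 0.0475); centring ended 2 (Col11a1 and Col9a1), and centring with scaling 4 (these and Lama4 and Lamb3). Averaging its probes ended the call of Lamc3 at 0.21. Probes measured on 2 or 3 arrays and robust variances each ended that of Col11a1. The cause of these changes was not tested. No paired analysis was possible because all 3 arrays form 1 group and each already holds both RNAs.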
